A study of Mus musculus with 6 samples.

Results

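The genes followed here encode clotting proteins that hepatocytes secrete into plasma: the fibrinogen chains Fga, Fgb and Fgg, the protease precursors F2, F7, F9, F10, F11 and F12, and the inhibitor Serpinc1. They were taken by name, and every probe set annotated with 1 of these symbols was read. All 10 genes were found, of 18194 genes on the arrays, and 12 probe sets read them: 3 for F10 and 1 for each other gene. All 12 probe sets were on the 430A design of the Affymetrix mouse arrays and none on the 430B design. All 12 lay above the floor used here on all 3 arrays of that design, so no gene was lost to a filter on low signal. The floor was the median signal of the design, 90.4 units.

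The livers came from male mice of hybrid B6SJL background that were 32 to 37 days old. WT mice were not transgenic. Mice of the LT and 17kT groups carried ApoErtTA, a doxycycline-dependent activator driven by an apolipoprotein E promoter, as its name implies, together with an SV40 transgene labelled TRE2-TAg, and they were induced to make large T or 17kT respectively. Small t was made in both groups, per the labels, and 17kT is a short form of large T that keeps the part binding the retinoblastoma proteins. All groups, WT included, received 25 µg/ml doxycycline and 2.5% sucrose in the drinking water for 4 days. WT mice lacked ApoErtTA, so its part in a difference from WT cannot be told apart from that of the viral proteins. Each genotype had 1 array of each design. No value below has a replicate check, so no p-value is given, and precision is limited by having 1 array per value. The sources used here do not give whether 1 animal or a pool supplied the RNA. In liver RNA, fewer hepatocytes and less RNA per hepatocyte cannot be told apart. All 10 hepatocyte markers that were on the arrays were above the floor in at least 1 of the arrays of each comparison.

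Clotting runs as a chain of proteases made as inactive precursors. Factor XII and factor XI start the contact or intrinsic branch, factor VII starts the extrinsic branch with tissue factor, and both branches meet at factor X, which turns prothrombin (F2) into thrombin. Thrombin cuts fibrinogen, a protein of paired alpha, beta and gamma chains, into fibrin, and antithrombin (Serpinc1) blocks thrombin and factor X. Prothrombin and factors VII, IX and X need a vitamin K dependent modification to bind membranes. Fibrinogen is also an acute phase protein whose chains are made together under interleukin-6 signalling.

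The fibrinogen genes lie side by side on chromosome 3, in the order Fgg, Fga, Fgb of the RefSeq table, and their start regions are shown because their chains form 1 protein and all 3 had less signal than in WT. Each sequence runs from 250 bases before the annotated start to 50 bases after it, 5′ to 3′ on the gene's strand, in the RefSeq GRCm38.p6 build. Capitals mark matches to 3 letter strings or their reverse complements: CAAAGGTC of HNF4-type sites, TTGCNNAA of C/EBP-type sites and CTGGGAA of the interleukin-6 element. The strings were picked with the sequences in view, and a match describes letters only.
Fgg, chr3:83007474-83007773, + strand: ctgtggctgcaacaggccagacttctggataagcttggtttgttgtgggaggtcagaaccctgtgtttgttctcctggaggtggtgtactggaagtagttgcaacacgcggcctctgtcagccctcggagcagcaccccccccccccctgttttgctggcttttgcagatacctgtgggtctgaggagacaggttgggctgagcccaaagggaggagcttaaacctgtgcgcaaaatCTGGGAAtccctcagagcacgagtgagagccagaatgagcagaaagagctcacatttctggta
Fga, chr3:83025903-83026202, + strand: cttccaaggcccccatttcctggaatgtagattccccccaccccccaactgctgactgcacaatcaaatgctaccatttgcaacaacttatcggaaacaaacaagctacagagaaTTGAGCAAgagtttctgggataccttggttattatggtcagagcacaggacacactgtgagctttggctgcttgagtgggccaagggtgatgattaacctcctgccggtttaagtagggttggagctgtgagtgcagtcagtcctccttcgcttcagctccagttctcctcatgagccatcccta
Fgb, chr3:83049814-83050113, - strand: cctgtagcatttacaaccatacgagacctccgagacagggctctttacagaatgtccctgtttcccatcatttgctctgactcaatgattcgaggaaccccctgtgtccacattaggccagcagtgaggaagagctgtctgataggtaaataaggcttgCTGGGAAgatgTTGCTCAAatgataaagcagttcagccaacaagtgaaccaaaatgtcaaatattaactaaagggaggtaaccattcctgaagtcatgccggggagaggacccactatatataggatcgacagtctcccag
The Fgg region held the interleukin-6 element string 13 bases before its start. The Fga region held a C/EBP-type string 135 bases before the start. The Fgb region held the C/EBP-type string at 80 bases and the interleukin-6 element string at 91. Of 32851 annotated start regions of 300 bases, 1.17% held the HNF4-type string, 10.8% the C/EBP-type string and 11.1% the interleukin-6 element string.

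Start regions of all 10 genes were in the RefSeq table. The HNF4-type string was in 3 of the 10, those of F7, F9 and F12. The C/EBP-type string was in 5 (Fga, Fgb, F9, F11 and Serpinc1) and the interleukin-6 element string in 3 (Fgb, Fgg and F9). None of the 3 strings was in the start regions of F2 and F10, which says only that these letters are not in those windows. The stretches of 41 bases around the HNF4-type matches are shown because the same string stood within 33 bases of the start in each, beside the stretch of F11, the gene with the lowest ratios to WT, around its C/EBP-type match.
F7, chr8:13025984-13026024, + strand: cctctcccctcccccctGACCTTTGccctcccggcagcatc
F9, chrX:59999439-59999479, + strand: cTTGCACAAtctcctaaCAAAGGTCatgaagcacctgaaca
F12, chr13:55426808-55426848, - strand: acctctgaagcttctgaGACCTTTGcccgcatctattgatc
F11, chr8:45262025-45262065, - strand: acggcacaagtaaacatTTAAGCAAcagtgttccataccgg
The F9 stretch also held a C/EBP-type match. F11 lacked the HNF4-type string, as did F2, F10, Fga, Fgb, Fgg and Serpinc1, while F7, F9 and F12 held it. Their signals are given below, and a link between signal and string was not tested.

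LT was set against WT to see how the clotting genes differed in livers making large T and small t. All 10 genes had less signal in LT than in WT, by 1.29-fold for Fgb to 4.19-fold for F11. A gene was called when its signal differed at least 2-fold, a log2 ratio of 1 or more in size. By that rule F11, F2 and F9 were lower, 3 of 10 genes, and 0 were higher. Over all genes measured, 9.01% were called lower in LT and 11.1% higher. Among probe sets of the 430A design with a gene name, 7.97% were called lower, against 3 of the 12 probe sets here. The median log2 ratio of the 10 genes was -0.83, beside 0.02 over all 12776 measured genes, and all 10 lay below that median.

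For livers making 17kT and small t, the reference was the same WT array, so the comparisons with WT share it. All 10 genes again had less signal than in WT, by 1.37-fold for Fgb to 6.80-fold for F11. F2, F10, F11, F12 and Serpinc1 were called lower, 5 of 10 genes, and 0 were higher. Over all genes measured, 8.64% were called lower in 17kT and 9.97% higher. Of named 430A probe sets, 7.77% were called lower, against 5 of the 12 here. The median log2 ratio of the 10 genes was -0.87, beside 0.07 over all 12993 measured genes.

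The counts depended on how arrays were made comparable. In the setting used here, arrays of a design shared a trimmed mean signal. The deposited signals, counted below among the 6 scalings, already nearly shared it and gave nearly the same values. Scaled to bacterial and phage control RNAs, which moved the median of all genes to 0.41 in LT and 0.47 in 17kT, F11 was the only one of the 10 genes called in either comparison, and Fga, Fgb, Fgg, F7 and F9 had log2 ratios above 0 in 17kT. Set against that shift, the median of the 10 genes was then -0.87 in LT and -0.62 in 17kT, against -0.85 and -0.94 in the setting used here. Under quantile normalization the median of the 10 genes, set against that of all genes, was -0.58 in LT and -0.61 in 17kT. The split of all calls shifted too: with the control RNAs 22.1% of genes were higher and 4.57% lower in LT, and 24.9% and 4.93% in 17kT. Scaled to probe sets that both designs carry, 6.18% were higher and 16.7% lower in LT, and 7.99% and 10.6% in 17kT.

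**Figure D1:**
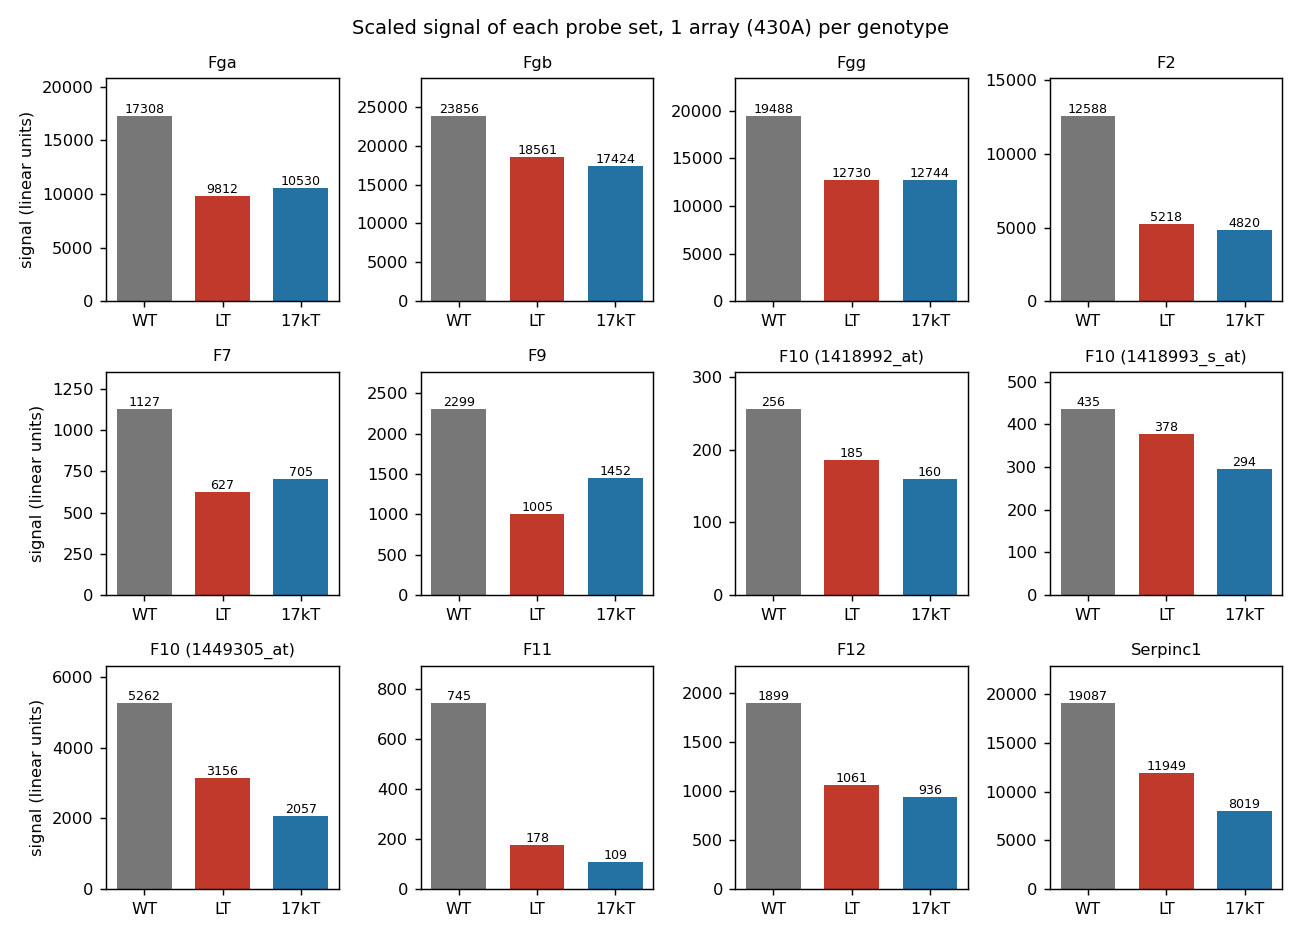
Scaled signal (vertical axis, linear units from 0) of each of the 12 probe sets on the WT, LT and 17kT arrays of the 430A design, 1 bar per array with its value above it. The WT bar is the highest in all 12 panels, and the F11 bars drop from 745 in WT to 178 in LT and 109 in 17kT.

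On the probe sets that stood for the genes, Fgb and Fgg kept more of their WT signal than all the protease genes. Fga was not set apart from them. It kept 56.7% in LT, less than F10 (60.0%) and close to F12 (55.9%) and F7 (55.6%). In 17kT it kept 60.8%, less than F7 (62.6%) and F9 (63.1%). Fga, the alpha chain, had signals of 17308 in WT, 9812 in LT and 10530 in 17kT. Fgb, the beta chain, had 23856 in WT, 18561 in LT and 17424 in 17kT. Fgg, the gamma chain, had 19488 in WT, 12730 in LT and 12744 in 17kT. For each chain WT was the highest array and the transgenic arrays lay close to each other.

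None of the chains passed the 2-fold rule. The log2 ratio of LT to WT was -0.82 for Fga, -0.36 for Fgb and -0.61 for Fgg, and that of 17kT to WT was -0.72, -0.45 and -0.61. The technical spread of a log2 ratio, taken from the 100 probe sets that both designs carry, was 0.23 for LT against WT and 0.28 for 17kT against WT (SD). That spread holds no variation between animals, so it does not show whether the genotypes differ. The same probe sets had ratios lower by 0.25 on 430A than on 430B for LT against WT and higher by 0.19 for 17kT against WT, in their median. Under the 6 scalings the ratio of Fgb in LT turned to 0.15 with quantile normalization and to 0.01 with scaling to the control RNAs, and all 3 chains turned positive in 17kT, by up to 0.33, with quantile normalization and with scaling to the control RNAs. Between LT and 17kT the log2 differences were -0.10 for Fga, 0.09 for Fgb and -0.002 for Fgg, each smaller than the technical SD of 0.26.

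F2, the prothrombin gene, was lower in both transgenic livers. Its signals were 12588 in WT, 5218 in LT and 4820 in 17kT. LT was 2.41-fold and 17kT 2.61-fold below WT. The call held in 4 of 6 scalings for each, among them the setting used here and the nearly identical deposited signals. The remaining values nearest 0 were -0.90 in LT and -0.66 in 17kT.

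F9, whose product activates factor X and is missing in haemophilia B, was called lower in LT, while 17kT did not pass the rule. Its signals were 2299 in WT, 1005 in LT and 1452 in 17kT. LT was 2.29-fold below WT, and 17kT had a log2 ratio of -0.66. The difference between LT and 17kT was -0.53 on the log2 scale, 17kT being higher, which is not past the rule. F9 thereby had the lowest LT against 17kT value of the 10 genes.

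F7, which starts the extrinsic branch, had signals of 1127 in WT, 627 in LT and 705 in 17kT. F12, which starts the contact branch, had 1899 in WT, 1061 in LT and 936 in 17kT. Neither was far from the rule in LT: F7 had log2 ratios of -0.85 in LT and -0.68 in 17kT, and F12 had -0.84 in LT and -1.02 in 17kT. F12 was the gene closest inside the rule in 17kT, and F7 the closest outside it in LT.

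F10, the gene of the protease on which both branches converge, was read by 3 probe sets. The brightest, 1449305_at, had signals of 5262 in WT, 3156 in LT and 2057 in 17kT, and represents the gene here. Probe set 1418993_s_at had 435 in WT, 378 in LT and 294 in 17kT, and 1418992_at had 256, 185 and 160. In each of the 3 the order was WT, LT, 17kT from high to low. The sizes differed: the log2 ratio of 17kT to WT was -1.35, -0.56 and -0.68 in that order of probe sets, and that of LT to WT was -0.74, -0.20 and -0.46. The call of F10 in 17kT rested on the brightest probe set, and the mean of the 3 did not pass.

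F11, the gene of the factor that factor XII activates, had the lowest ratios of the 10 genes. Its signals were 745 in WT, 178 in LT and 109 in 17kT, the last little above the floor. LT was 4.19-fold and 17kT 6.80-fold below WT. It was called lower in both comparisons under all 6 scalings and by a 3-fold rule. When the floor was raised to the 75th percentile of signals, which lies above F11 on both transgenic arrays, its log2 ratio became a bound of -1.42 or lower in each.

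Serpinc1, the gene of antithrombin, had signals of 19087 in WT, 11949 in LT and 8019 in 17kT. LT had a log2 ratio of -0.68 to WT, and 17kT was 2.38-fold below WT. The difference between LT and 17kT was 0.58, with LT higher, which did not pass the rule. This clotting inhibitor thus had less signal than in WT on both transgenic arrays, as the clotting factors did.

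**Figure D2:**
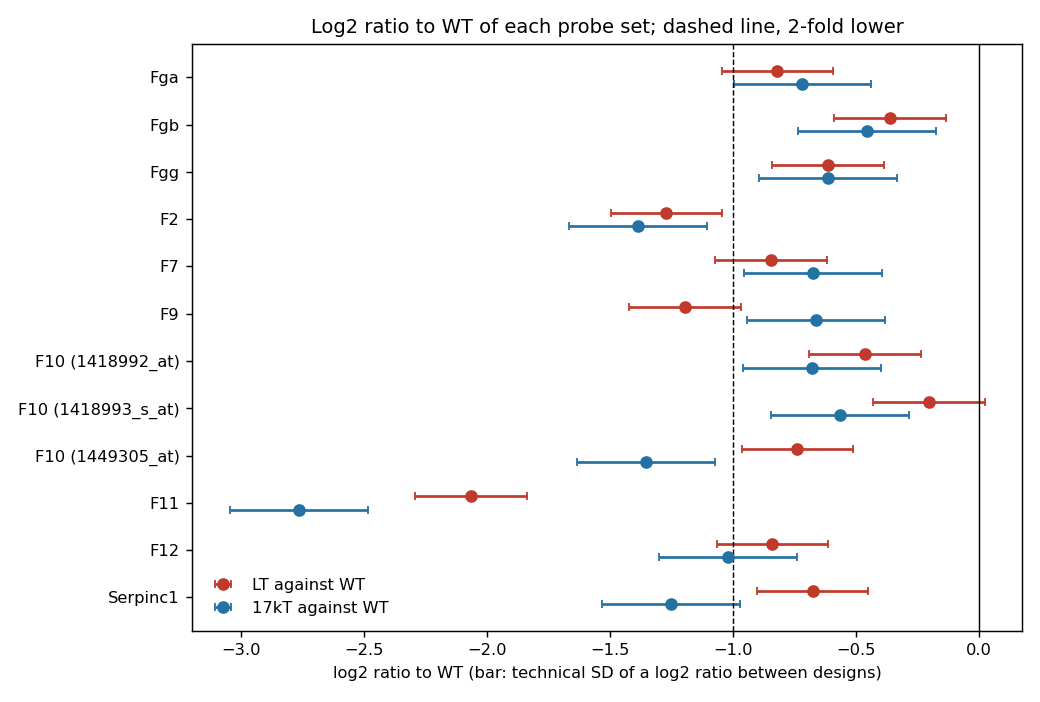
Log2 ratio to WT (horizontal axis) of each of the 12 probe sets, with LT in red and 17kT in blue, and bars of 1 technical SD (0.23 and 0.28) taken from 100 probe sets on both designs. All points lie left of 0, those of F11 and F2 left of the dashed 2-fold line in both comparisons, and those of the 3 fibrinogen chains right of it.

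LT and 17kT were compared to see whether livers making large T, which also binds p53, and 17kT, which does not, differed in these genes. None of the 10 genes passed the 2-fold rule in either direction. Over all genes 4.23% were lower and 4.47% higher in LT, and 2.46% of named 430A probe sets were lower. Scaled to the median of all probe sets the split was 2.52% lower and 6.94% higher, and scaled to the shared probe sets 8.92% and 2.34%. F11 (0.70), F10 (0.62) and Serpinc1 (0.58) had the highest log2 values, with more signal in LT, and F9 (-0.53) and F7 (-0.17) the lowest. The median of the 10 genes was 0.10, beside -0.03 over all 12542 measured genes, and it turned to -0.18 with quantile normalization and -0.25 with the control RNAs. The 100 probe sets on both designs had a median LT against 17kT value lower by 0.36 on 430A, the design of all 10 genes, than on 430B. That offset is larger than the technical SD of 0.26, so differences of the size of 0.5 are near the precision of these arrays.

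Brightness moved with these ratios. Probe sets were put in classes by their mean signal over the 3 arrays. Fga, Fgb, Fgg, F2 and Serpinc1 were among the probe sets with a mean above 5000, a class of 155 named 430A probe sets whose median log2 ratio was -0.38 in LT and -0.58 in 17kT. In that class 20.0% were called lower in LT and 31.0% in 17kT, and the 5 probe sets of interest had medians of -0.68 and -0.72. Of 1305 probe sets with a mean between 1000 and 5000, 21.3% were lower in LT and 22.3% in 17kT, with medians of 0.02 and -0.08, while F9, F12 and the brightest F10 probe set had medians of -0.84 and -1.02. Of those between 100 and 1000, 6.88% were lower in LT and 6.54% in 17kT, and this class held F7, F11 and the dimmer F10 probe sets. Beside the class median in LT, Fgb (-0.36) was close, while Fgg (-0.61) and Fga (-0.82) were lower. In 17kT Fgb (-0.45), Fgg (-0.61) and Fga (-0.72) lay on both sides of the class median. The part of brightness in these ratios was not tested.

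**Figure D3:**
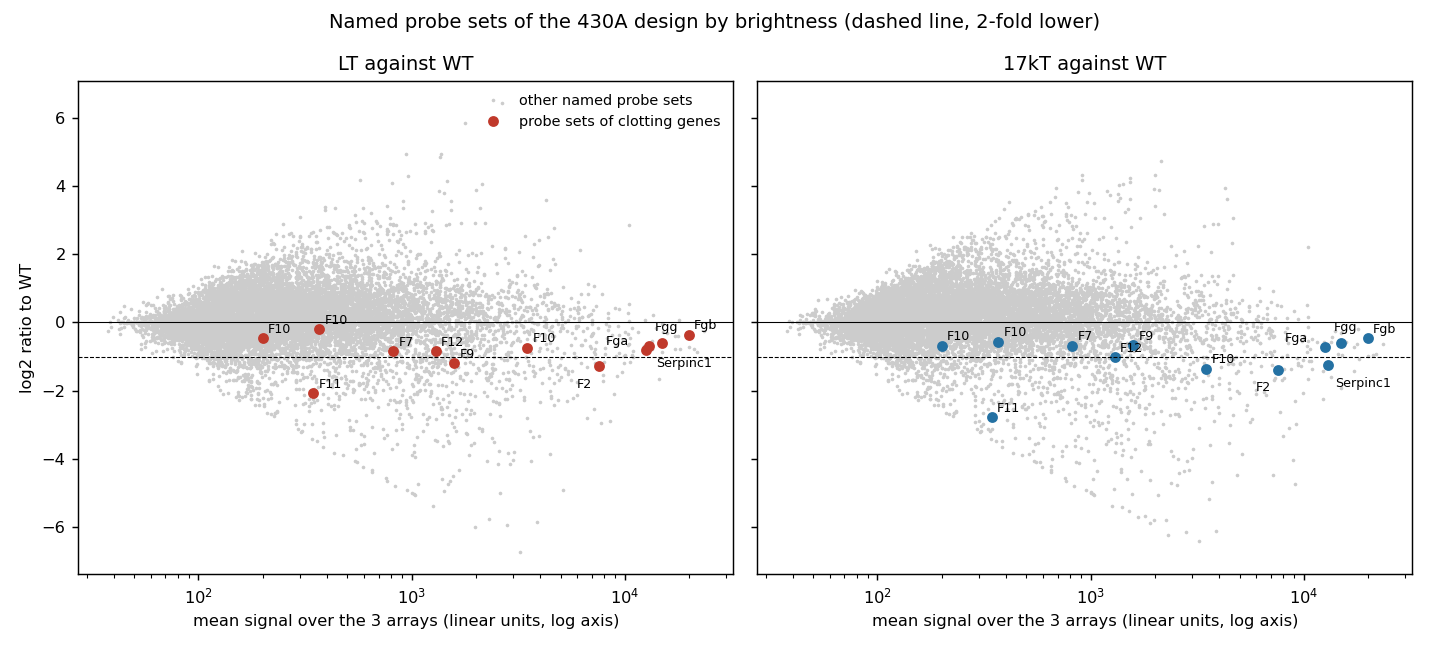
Log2 ratio to WT (vertical axis) against mean signal over the 3 arrays (horizontal axis, logarithmic) for named probe sets of the 430A design, with the 12 probe sets of the clotting genes in colour. The cloud of the brightest probe sets lies mostly below 0 in both panels, as do the fibrinogen chains, and F11 lies well below the bulk of probe sets of its brightness.

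RNA quality also differed between the arrays. The ratio of the 3′ to the 5′ Gapdh control probe set was 5.81 on the WT 430A array, 3.08 on that of LT and 3.53 on that of 17kT. The same ratio for Actb was 2.57, 2.52 and 2.13. The LT array was washed on fluidics station 2 and the other arrays on station 1, so what the station added cannot be told apart from what the LT genotype did. The part of RNA quality in the ratios was not tested.

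The other genes of the clotting cascade were read from a list of 9, of which 8 were on the arrays and 5 were measured. Of these, 4 were lower in LT and the same count in 17kT, and 0 were higher, with a median log2 ratio of -1.35 in LT and -1.37 in 17kT. F13b, the carrier subunit of the factor that cross-links fibrin, had signals of 3334 in WT, 1121 in LT and 622 in 17kT, which is 2.97-fold and 5.36-fold below WT. F5, the cofactor of factor X, had signals of 2136, 940 and 828 in that order, 2.27-fold and 2.58-fold below WT, while its dimmer probe set did not pass the rule (-0.91 and -0.74). Kng1, the kininogen of the contact branch, was 2.56-fold and 2.17-fold lower. A near copy of Kng1, Kng2, was not analysed here, and whether the probes read both was not tested. F8, the cofactor of factor IX, which liver endothelial cells make, had log2 ratios of -0.32 and -0.47. F3, F13a1 and Vwf were at the floor on all arrays. Under the 6 scalings the median stayed below 0, at -0.98 or lower in LT and -0.52 or lower in 17kT, and 2 to 4 genes were lower in each.

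Klkb1, the plasma prekallikrein gene, is the gene next to F11 in the RefSeq order and its close relative. Its signals were 2274 in WT, 747 in LT and 282 in 17kT, which is 3.04-fold and 8.07-fold below WT. Klkb1 and F11 both had the order WT, LT, 17kT, and both were called lower in both comparisons under all 6 scalings. The LT value of Klkb1 was 1.41 above that of 17kT on the log2 scale, past the rule, whereas that of F11 was 0.70 above and not past it.

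Neighbours of the other genes did not share 1 direction. Proz, which follows F7 and F10 on chromosome 8 and encodes a vitamin K dependent cofactor of a factor X inhibitor, was 3.29-fold below WT in LT and 3.59-fold in 17kT. Plrg1, a splicing factor gene next to Fgb, had log2 ratios of 1.15 in LT and 0.96 in 17kT, and Lrat, next to Fgg, had -1.13 and -0.31. Ckap5, a microtubule-binding protein gene next to F2, had 1.16 in LT and 1.43 in 17kT.

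Of 10 listed anticoagulant genes, 7 were measured in LT and 8 in 17kT. In LT, 4 were lower and 0 higher, with a median of -1.07, and in 17kT 6 were lower and 0 higher, with a median of -1.41. Over the 6 scalings the count lower ranged from 1 to 5 in LT and from 3 to 6 in 17kT. Proc, the protein C precursor, had signals of 5278 in WT, 2303 in LT and 1746 in 17kT, 2.29-fold and 3.02-fold below WT. Serping1, the inhibitor of the contact branch and of complement C1, had 8826, 3566 and 2179, 2.48-fold and 4.05-fold below WT. Serpind1, heparin cofactor II, had 4818, 3952 and 1860. It was 2.59-fold lower in 17kT, had a log2 ratio of -0.29 in LT, and was past the rule between LT and 17kT. Pros1, the cofactor of protein C, had log2 ratios of -0.77 in LT and 0.14 in 17kT. Tfpi, the inhibitor of the extrinsic branch, was 2.11-fold and 2.52-fold lower on its brightest probe set, on 430B, and its 3 dimmer 430A probe sets, 2 of which reached the floor on some arrays, had log2 ratios between -0.81 and -0.41.

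Genes of fibrinolysis included Hrg, which had the lowest ratios to WT of all the lists read here. Of 5 measured, Hrg, Plg and Serpinf2 were lower in both comparisons and 0 were higher, with medians of -1.04 in LT and -1.20 in 17kT. Over the 6 scalings the count lower ranged from 1 to 3 in each, and Hrg was in it under all 6. Hrg, a plasma glycoprotein that binds plasminogen and heparin, had signals of 6981 in WT, 398 in LT and 255 in 17kT, which is 17.6-fold and 27.3-fold below WT. Plg, the precursor of the fibrin-cutting protease plasmin, was 2.57-fold and 3.06-fold lower, and its inhibitor Serpinf2 2.06-fold and 2.29-fold lower.

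Of 7 genes of the vitamin K cycle and of clotting factor secretion, 0 were lower in either comparison on the probe sets that stood for them, 0 were higher in LT and 1 was higher in 17kT. That gene was Nqo1, a quinone reductase, at the floor in WT and at least 2.89-fold higher. Ggcx, the carboxylase that modifies prothrombin and factors VII, IX and X, had log2 ratios of -0.49 in LT and 0.03 in 17kT, but its 430B probe set gave -0.94 and -1.32, the latter past the rule. The 430A probe set stood for the gene because it was the brighter relative to the floor of its design, although the 430B probe set had the higher signal. With the 430B probe set of Ggcx the count lower in 17kT would be 1. Lman1, another gene of this list, had a log2 ratio of -0.46 in LT, but its 430B probe set gave 1.22, past the rule. With that probe set the count higher in LT would be 1. Vkorc1, which recycles vitamin K, had -0.57 and -0.87. The medians were -0.46 in LT and -0.21 in 17kT, and the latter turned to as high as 0.31 over the 6 scalings, with 0 to 2 genes lower.

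Genes related to fibrinogen or secreted with it had 2 of 6 measured members lower in each comparison and 0 higher, and over the 6 scalings 2 in LT and 1 to 4 in 17kT were lower. Fgl1, a liver protein with a fibrinogen-like domain, had signals of 3968 in WT, 632 in LT and 1281 in 17kT, 6.28-fold and 3.10-fold below WT, with 17kT 2.03-fold above LT. Itih1, a heavy chain of the inter-alpha inhibitor, had 3873, 502 and 251, 7.71-fold and 15.4-fold below WT. Its relatives Itih2, Itih3 and Itih4 did not pass the rule, with log2 ratios between -0.64 and 0.26 in LT and between -0.90 and -0.10 in 17kT.

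Among 21 listed regulators of hepatocyte and interleukin-6 driven transcription, 17 were measured in LT and 16 in 17kT. In LT 0 were lower and 1 higher, Prox1. In 17kT Cebpa and Nr1h4 were lower and Socs3 was higher. Over the 6 scalings 0 to 2 were lower and 0 to 4 higher in LT. The counts in 17kT ranged from 1 to 2 lower and from 0 to 5 higher. Cebpa, the main C/EBP factor of mature hepatocytes, had signals of 2244 in WT, 1221 in LT and 538 in 17kT. Its log2 ratio was -0.88 in LT, and it was 4.17-fold below WT in 17kT. The 2-fold call in 17kT held under all 6 scalings, with log2 ratios between -2.27 and -1.34. Cebpb had log2 ratios of -0.03 and 0.59. Hnf4a, a nuclear receptor that drives many clotting genes, had -0.19 and -0.28 on its brightest probe set, and between -0.57 and 0.28 on the others. Socs3, an inhibitor induced by interleukin-6, had signals of 93.9 in WT, 181.0 in LT and 210.7 in 17kT, all near the floor. Its _x_at probe sets, at the floor in WT, gave bounds of 0.44 and 0.66 in 17kT.

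**Figure D4:**
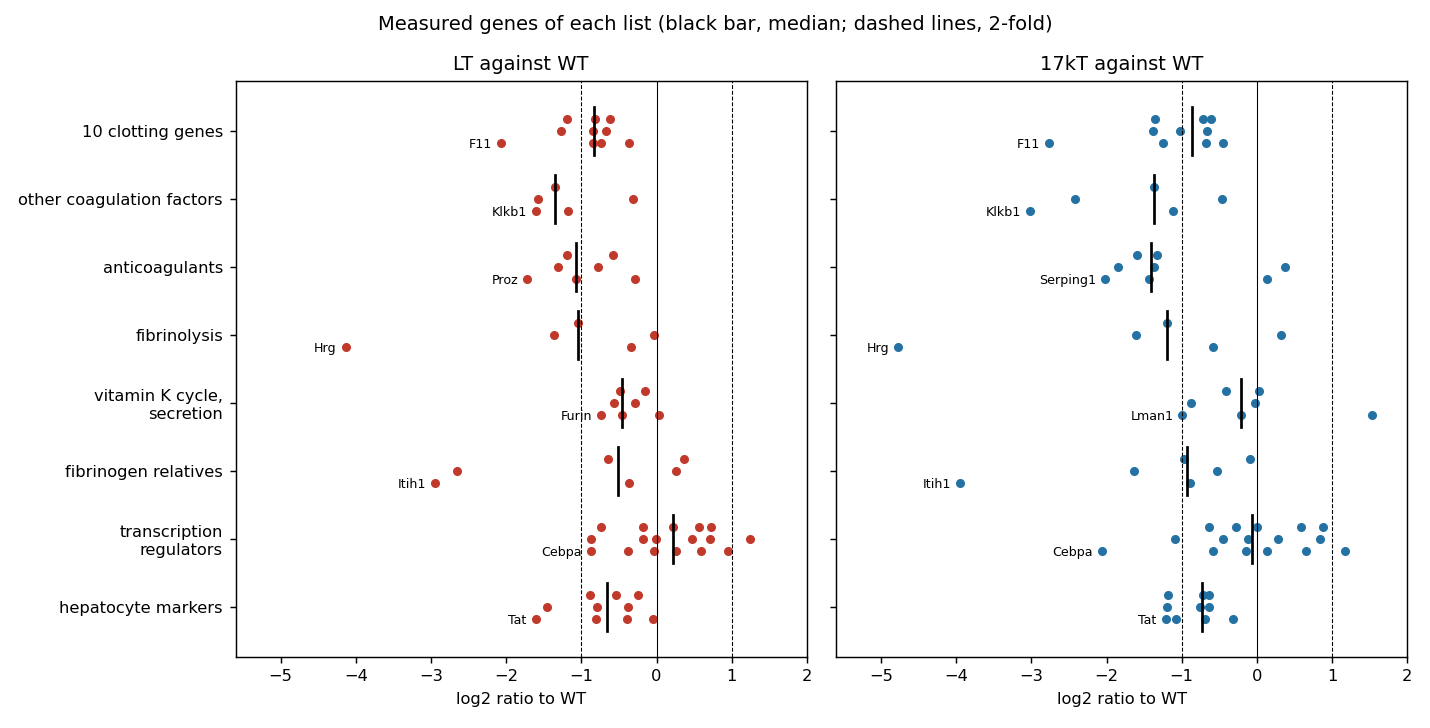
Log2 ratio to WT (horizontal axis) of each measured gene of the 10 clotting genes and of 7 lists, 1 point per gene, in LT (left) and 17kT (right), with the median of each list as a black bar and the lowest gene named. The medians of the other coagulation factors, the anticoagulants and fibrinolysis lie left of the 2-fold line, while that of the vitamin K list was -0.46 in LT and -0.21 in 17kT and that of the transcription regulators 0.22 and -0.06.

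The 10 hepatocyte markers had a median log2 ratio of -0.66 in LT and -0.73 in 17kT, with 2 of 10 and 4 of 10 lower. Over the 6 scalings the count lower ranged from 2 to 6 in LT and from 0 to 4 in 17kT, where the median came up to -0.01. Alb, the albumin gene, had -0.25 and -0.63, and Ttr, transthyretin, -0.54 and -1.19 on its 430B probe set. The 430A probe sets of Ttr gave between -0.98 and -0.77 in LT and between -2.30 and -1.43 in 17kT. The summed signal of the 9 markers that 430A probe sets stood for was 159014 in WT, 110152 in LT and 94456 in 17kT. Ttr is not in that sum, and its 430B probe set had signals of 83346 in WT, 57393 in LT and 36487 in 17kT. The part of a change in hepatocyte RNA as a whole in the values of the clotting genes was not tested.

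Markers of other cells were read in the same way. Of 7 measured endothelial markers, 2 were lower in LT and 1 in 17kT, where 1 was higher. Their median log2 ratio was -0.61 in LT, close to the -0.66 of the hepatocyte markers, and -0.39 in 17kT. Over the 6 scalings 0 to 2 endothelial markers were lower in LT and 0 higher. In 17kT 0 to 1 were lower and 0 to 2 higher, with medians between -0.59 and 0.33. The summed signal of all 8 listed endothelial markers was 3669 in WT, 2457 in LT and 3198 in 17kT. Of 8 Kupffer cell and macrophage markers 0 passed in either comparison with WT, with summed signals of 8496, 7367 and 8345. Over the 6 scalings 0 of them passed in LT. In 17kT 0 were lower and 0 to 3 higher, with medians between -0.08 and 0.85. Of 7 measured stellate cell markers, 1 was lower in LT and 0 in 17kT, with medians of -0.45 and -0.24. Over the 6 scalings 0 to 1 were lower in LT and 0 higher, and in 17kT 0 to 1 were lower and 0 to 1 higher. Summed 430A signals of the stellate list were 5218 in WT, 3803 in LT and 5610 in 17kT. Lrat, the marker called lower in LT, was read on 430B and is not in that sum. Of 5 megakaryocyte and platelet markers 0 were lower in either and 1, Itgb3, was higher in 17kT. Over the 6 scalings 0 to 1 were lower in LT, and 1 was higher in 17kT. Itgb3 was read on 430B, with signals of 32.6 in WT, 181.5 in LT and 388.2 in 17kT. WT was at the floor, so its ratio is a bound, and its 430A probe set was at the floor on all arrays. The medians of the platelet markers were -0.50 in LT and 0.07 in 17kT. Summed 430A signals of the platelet list, which leave out Itgb3, were 725 in WT, 467 in LT and 643 in 17kT. Ppbp and Gp9 were at the floor on all arrays. All 4 bile duct markers were at the floor on the probe sets that stood for them. Epcam also has a 430B probe set that served only as a fallback (_x_at, open to cross-hybridisation), with signals of 1167 in WT, 1310 in LT and 597 in 17kT. Alas2, the haem synthesis gene of red cell precursors and the only erythroid marker measured, was lower in both, with signals of 1742 in WT, 124 in LT and 141 in 17kT.

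By distance in the log2 ratios of LT and 17kT to WT, the genes nearest to the medians of the 10 clotting genes were Dynlrb2, Stk38l, Dpm1, Eif4ebp2 and Ces2g. Dynlrb2 had -0.83 and -0.87, and the farthest of these 5, Ces2g, had -0.80 and -0.85. Likeness over 3 arrays that share WT is a description of 2 values per gene only.

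**Figure D5:**
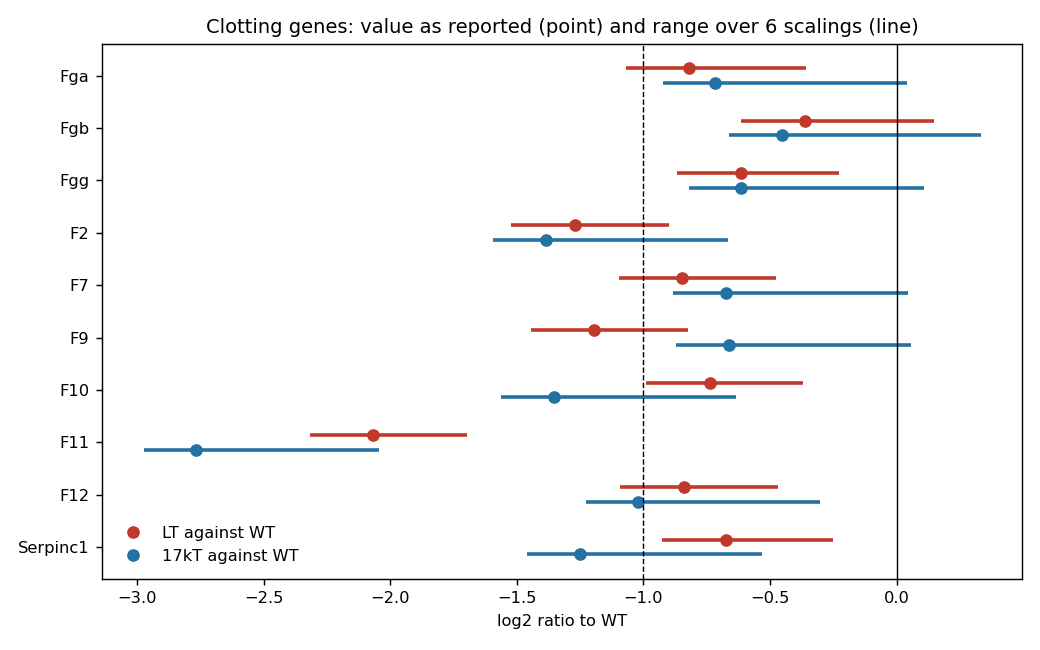
Log2 ratio to WT (horizontal axis) of each of the 10 genes as reported (point) and its range over 6 ways of scaling the arrays (line), for LT in red and 17kT in blue. The line of F11 stays left of the 2-fold mark in both comparisons, and the lines of the fibrinogen chains, F7 and F9 reach past 0 in 17kT.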

How the data were processed

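Liver RNA of 3 genotypes was measured on 6 arrays, with a 430A and a 430B array for each genotype. The authors deposited signal intensities on a linear scale, made with MAS5 (the submitters' processing notes name no version). They came already scaled, with 2% trimmed means of 250.03 to 250.12. Here they were scaled within a design to a common trimmed mean, floored at the design's median (90.4 on 430A, 140.5 on 430B) and log2 transformed (Python 3.11.15, pandas 2.3.3). Ratios were taken within a design. The probe set brightest relative to its design's floor stood for a gene, and _x_at probe sets served only where there was no other. A ratio to an array at the floor is a bound. Genes were called at 2-fold or more, with no test. The code was tested on simulated arrays. Of 22690 probe sets on 430A and 22575 on 430B, 20393 and 14674 had 1 gene symbol, updated through RefSeq identifiers (GRCm38.p6). Between probe sets of the same gene the SD of a log2 ratio was 0.54 for LT against WT and 0.51 for 17kT against WT.

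The 10 genes, the lists and the markers were chosen with earlier results of these data known. From a list, up to 6 genes past the rule each way and the defining genes of a role were named. Neighbouring genes, brightness classes and motif strings were chosen after the values or sequences were seen. Alternatives were 5 other scalings, 3 other treatments of the floor, a 3-fold rule, other choices of probe set, and 1 design alone. Some listed genes are not reported here.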

Additional observations from a re-analysis of the deposited data

How the results depend on the processing

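With 1 array per group nothing here could be tested, and all values rest on how 3 arrays were made comparable. The count of clotting genes called lower in LT against WT, 3, became 6 with scaling to the probe sets that both designs share, 1 when scaled to the hybridisation controls and 1 under a 3-fold rule. Of all genes measured, 16.7%, 4.57% and 3.35% were then lower in LT, in that order of settings. The count for 17kT against WT, 5, became 1 under quantile normalization, 1 with the hybridisation controls and 1 under the 3-fold rule. Of all genes measured, 9.16%, 4.93% and 3.91% were then lower in 17kT, in that order of settings. The 1 of 10 clotting genes under quantile normalization was thus near the share over all genes. F11 was in each of these counts of clotting genes. The count for LT against 17kT was 0 under every alternative run. The median log2 ratio in LT against WT moved from -0.83 to -1.08 with the shared probe sets, -0.59 under quantile normalization and -0.46 with the hybridisation controls. In 17kT against WT it moved from -0.87 to -0.15 with the hybridisation controls, and in LT against 17kT from 0.10 to -0.18 under quantile normalization and -0.25 with the hybridisation controls. The other settings moved these medians by less than the technical SD and the counts by at most 1.5 times. Of 329 values of single clotting genes under the alternatives, 64 moved by the technical SD or more, and no called value changed sign. Several alternatives could hardly move these values, so the share that moved is low in part for that reason. The deposited signals already shared a trimmed mean, and all probe sets read lay on 430A and above the lower floor. Only F10 had more than 1 probe set, and its representing probe set was kept without _x_at and _s_at probe sets. The 430B design alone gave no value, as it holds none of these probe sets.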
